A study of Rattus norvegicus with 10 samples.

Results

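Serotonin receptors were examined in poly(A) RNA from the cerebral cortex of adult male Sprague-Dawley rats, to see which receptors the tissue carried and whether any differed after electroacupuncture (EA). The 5 EA rats were needled at the head points GV20 and GV26 and stimulated at 3 mA and 2/100 Hz for 40 min, and the 5 control rats were held in the same binding over 40 min, with no needles described. All rats were perfused with saline under pentobarbital before the cortex was stripped. No gene deletion or transgene is described, no age beyond adult is given, and how cages and days of treatment fell across the groups is not given. The control was thus a bound rat, not a rat with needles and no current. Each library is taken as 1 rat from its own replicate label, which is not stated outright, so p-values measure the spread between these libraries.

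The members were 10 receptor genes looked up by name in the gene table, Htr1a, Htr1b, Htr1f, Htr2a, Htr2c, Htr3a, Htr4, Htr5a, Htr6 and Htr7. Of these 10 names, 9 matched a row among the 32623 genes of the table, and none matched more than 1. No row carried the name Htr7. A row named LOC103694905 is described in the table as 5-hydroxytryptamine receptor 7, and it is given here under its own name and outside the member counts. Levels are in FPKM, fragment numbers scaled for transcript length and library size. A gene was tested where 5 or more libraries reached 0.5 FPKM, which 15169 genes did. Of the 9 members 7 passed, and Htr1f and Htr4 did not.

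Serotonin reaches the cortex along axons from the raphe nuclei of the brainstem and acts there on receptors of several families. Receptors of the 5-HT1 and 5-HT5 families couple to Gi proteins, which lower cyclic AMP and open potassium channels, and 5-HT2 receptors couple to Gq, which drives phospholipase C and calcium release. The 5-HT4, 5-HT6 and 5-HT7 receptors couple to Gs and raise cyclic AMP. The 5-HT3 receptor is a cation channel opened by serotonin itself. In cortex Htr2a is known from the dendrites of deep-layer pyramidal neurons, where it excites the cell and is the target of psychedelic drugs, Htr1a from pyramidal cells that it inhibits, and Htr3a from a class of inhibitory interneurons.

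Deposited counts summed to 55223193 to 61707722 per control library and to 47843590 to 60941939 per EA library. The 9 receptors together drew 3008 to 4053 counts in a library. In structural RNA (small nuclear, small nucleolar and other short structural transcripts) EA 2 and EA 5 stood apart, with summed FPKM values of 1986 and 2440, whereas the remaining 8 libraries held 1074 to 1341, so receptor results, gene list counts and the effector genes apart between groups were also computed without these libraries. Low counts bunched at 4, 8 and 12, while 16 (883 values) was rarer than 15 (1087 values). The value 4 occurred 4334 times in the table against 2108 for 3 and 1337 for 5, and 8 occurred 2543 times against 1310 for 7. How the counts were drawn from the reads is not given, so low counts are not read as numbers of read pairs.

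The tissue label was met by its markers. Of 24 markers of excitatory cortical neurons 21 were tested, with a summed FPKM of 780 to 860 in control and 718 to 889 in EA. Of 12 choroid plexus markers 3 were tested, with a sum of 18.7 to 23.2 over the list in control and 17 to 22.2 in EA. Those 3 were Enpp2, which oligodendrocytes also express, at a mean of 16.2 FPKM, Kcnj13 at 2.15 (0.822 to 3.75) and Aqp1 at 1.40 (0.522 to 2.21). Ttr, the main transcript of choroid plexus, was at 0 to 0.752, Folr1 at 0 to 0.348 and Otx2 at 0 in all libraries. Of 8 markers of raphe serotonin neurons 4 were tested, with sums of 6.46 to 8.04 and 6.45 to 7.93. Those 4 were Slc18a2 at a mean of 2.86 FPKM, Gata2 at 2.51, Tph2 at 1.25 and Slc22a3 at 0.609. The rest stayed below the filter, among them Fev and En1 with no count in any library. Of 14 striatal markers 11 were tested, with sums of 138 to 155 and 131 to 164, among them Ppp1r1b at a mean FPKM of 74.4, Drd1 at 1.51 and Drd2 at 1.19, and cortical neurons also use Ppp1r1b.

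Htr2a had the highest RNA level in FPKM among the serotonin receptors looked at. Its level over the 10 libraries was 5.77 ± 0.803 FPKM (SD, n = 10), and it lay above the next receptor, Htr3a (3.14 ± 0.463), in 10 of 10 libraries. The mean within-library difference was 0.86 on the log2(FPKM + 0.1) scale (SD 0.25, exact paired permutation test, two-sided, p = 0.00195, the smallest p that 10 libraries allow, adjusted p = 0.00439 over 9 neighbour pairs). Such a p measures how steady the order was over libraries. A bias of FPKM particular to a gene would recur in each library and is not measured by it.

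Below Htr2a came a middle group of 5 receptors, of which only neighbours in level were tested. Htr3a (3.14 FPKM), Htr1b, which sits on axon terminals and restrains release (2.77 ± 0.503), Htr2c (2.54 ± 0.839), Htr5a (2.44 ± 0.366) and Htr6 (2.12 ± 0.465) followed each other, and no neighbouring pair differed beyond the spread. The ends of the group were apart in each library, with Htr3a above Htr6 in 10 of 10. Htr3a exceeded Htr1b in 7 of 10 libraries (exact permutation p = 0.0625, adjusted p = 0.113). Htr5a exceeded Htr6 in 7 of 10 (exact permutation p = 0.0977, adjusted p = 0.147). The mean of Htr2c was lowered by EA 2, where its level was 0.35 FPKM, and was 2.78 FPKM over the other 9 libraries. That mean is not to be set against the means of its neighbours, which are over 10 libraries.

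Htr1a lay lower, at 1.60 ± 0.268 FPKM, and below Htr6 in 10 of 10 libraries (exact permutation p = 0.00195, adjusted p = 0.00439). The row described as receptor 7, LOC103694905, had the same mean, 1.60 ± 0.295 FPKM, and the mean difference of 0.01 from Htr1a on the log2(FPKM + 0.1) scale was within the spread (SD 0.39, exact permutation p = 0.961). Htr1f, a Gi receptor that antimigraine drugs target, was at 0.319 ± 0.157 FPKM and 12 to 46 counts. Htr4, a Gs receptor better known from striatum and gut, was barely seen, with 0 counts in 6 of 10 libraries and 12 at most. Both steps down, from LOC103694905 to Htr1f and from Htr1f to Htr4, held in 10 of 10 libraries (exact permutation p = 0.00195 for each).

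**Figure D1:**
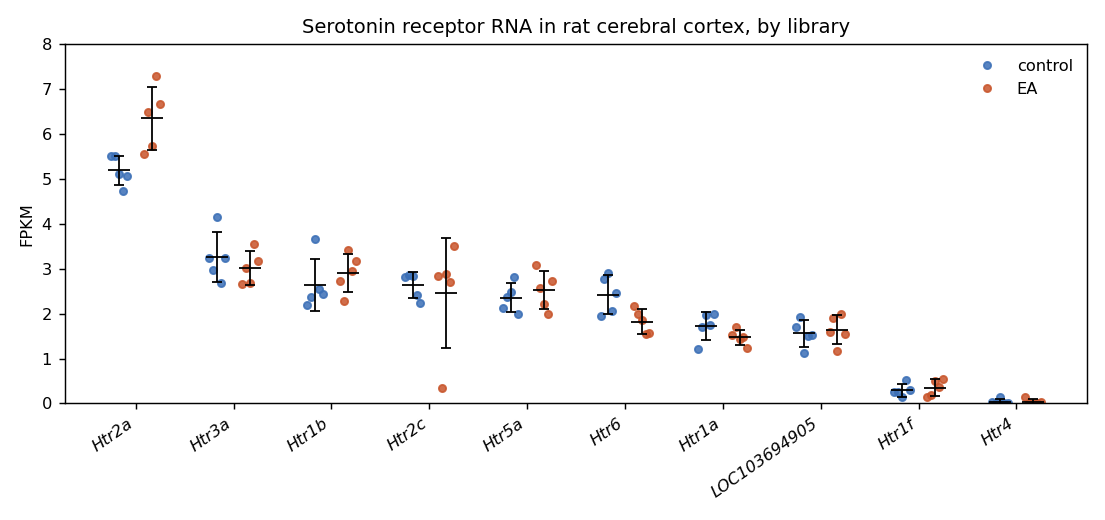
FPKM of each serotonin receptor in the 5 control (blue) and 5 EA (orange) libraries, points being libraries and bars the mean ± SD of a group, with genes ordered by mean level. Htr2a stands highest in every library, its EA points (5.56 to 7.28) lie above its control points (4.73 to 5.51), and Htr2c has a single EA library at 0.35.

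The other receptor genes of the family stayed at the bottom of the scale. Htr1d, a terminal receptor close to Htr1b, had a mean FPKM of 0.237 and 3 to 29 counts, and Htr5b had 0.0539 and 0 to 23 counts. Htr2b, best known from heart valves and vessels, had 0 to 6 counts. Htr3b, the subunit that pairs with Htr3a in mixed channels, had 0 counts in all 10 libraries, which is at or under a floor of 3 counts per library. None of these 4 genes passed the filter.

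The comparison of EA with control asked whether stimulation was followed by a different receptor make-up. With edgeR's quasi-likelihood F test on the counts, 0 of the 7 receptors tested were called by the rule of a Benjamini-Hochberg adjusted p under 0.05 together with more than 1.2-fold change. The same rule called 3 genes of all 15169, or 0.0198%. At an unadjusted p under 0.05 lay 2 of the 7, Htr2a higher and Htr6 lower in EA, where 13.7% of all genes tested did (6.59% higher and 7.15% lower). DESeq2, the tool of the study, called 1 of the 7 (Htr2a) and 1.09% of all genes (0.455% higher and 0.639% lower). It gave Htr1a no adjusted p, so Htr1a could not be called by it. The median log2 fold change of the 7 was -0.08, against 0.00 to the second decimal over all genes, and 3 of the 7 lay above 0. Without EA 2 and EA 5 it was 0.08, with 4 of the 7 above 0.

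Htr2a was higher in the EA rats, by a margin that edgeR did not call over all genes. The gene lies at chr15:56666012-56735382 on the plus strand (Rnor_6.0), with 1 transcript listed. Its FPKM was 5.51, 5.51, 5.11, 4.73 and 5.07 in controls 1 to 5 and 5.56, 6.49, 5.74, 7.28 and 6.67 in EA 1 to 5. All EA rats lay above all controls, with EA 1 only just so, and it was the only 1 of the 7 receptors without overlap in FPKM. Of all genes tested 0.85% were separated upwards in this way and 2.25% downwards. On CPM with TMM scaling (counts scaled for depth and library make-up, not for length) EA 1, at 26.8, fell within the controls, whose highest was 27.0 in control 1. On that scale 0 of the 7 receptors were without overlap, against 1.42% of all genes upwards and 1.62% downwards.

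The mean of Htr2a went from 5.19 ± 0.33 FPKM (SD, n = 5) to 6.35 ± 0.704 (n = 5). The log2 fold change was 0.31 (standard error 0.08, edgeR adjusted p = 0.183), a fold of 1.24 with a 95% interval of 1.10 to 1.40. By p it ranked 160 among the 15169 genes. DESeq2 gave the same size, 0.32, and an adjusted p of 0.0236. With 1 library left out in turn, DESeq2 still called the gene in 3 of 10 fits, those lacking control 1, EA 1 or EA 3. It was lost on leaving out control 2 (DESeq2 adjusted p = 0.0593), control 3 (0.0924), control 4 (0.0994), control 5 (0.0894), EA 2 (0.055), EA 4 (0.0763) or EA 5 (0.0997). With neither EA 2 nor EA 5 in the fit the log2 fold change was 0.29 with either tool (adjusted p = 0.514 with edgeR and 0.242 with DESeq2). In bulk tissue more cells of a type and more RNA per cell cannot be told apart.

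Htr6, a Gs receptor of forebrain neurons, pointed the other way. It lies at chr5:157503040-157518631 on the minus strand (Rnor_6.0). Its FPKM was 1.94, 2.77, 2.91, 2.05 and 2.45 in controls 1 to 5 and 2.16, 2.00, 1.85, 1.54 and 1.56 in EA 1 to 5. The groups overlapped, with 3 of 5 EA rats below the lowest control. The log2 fold change was -0.39 (standard error 0.16, 95% interval -0.73 to -0.05, edgeR adjusted p = 0.306), so it was not called, and DESeq2 gave an adjusted p of 0.218. Over 20 edgeR fits the log2 fold change ran from -0.46 to -0.31, and the unadjusted p was under 0.05 in 14 of them. It passed 0.05 on leaving out control 2, control 3, control 5, EA 4 or EA 5, and with both EA 2 and EA 5 out (log2 fold change -0.36, adjusted p = 0.613).

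Htr2c, the other Gq receptor of the set, whose RNA is known to be edited, had a single library far from the rest. The gene lies at chrX:118084890-118318039 on the plus strand (Rnor_6.0), and of the 7 small RNA rows inside its span 0 had a count. Its FPKM was 2.81, 2.86, 2.83, 2.41 and 2.24 in controls 1 to 5 and 2.83, 0.35, 2.88, 2.70 and 3.51 in EA 1 to 5. EA 2 held 98 counts against 607 to 915 in the other 9 libraries. With all libraries the log2 fold change was -0.08 (95% interval -0.97 to 0.81, edgeR adjusted p = 0.959). Without EA 2 it was 0.20 (edgeR adjusted p = 0.454), and the 4 other EA rats averaged 2.98 ± 0.362 FPKM against 2.63 ± 0.289 in the 5 controls.

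The nearest tested rows on the chromosome showed no such gap in EA 2. Lrch2 was at 1.62 FPKM against 1.38 to 2.15 in the other libraries, AABR07041096 lay above their range (11.4 against 4.71 to 8.54), and Pls3 lay just below it (17.4 against 17.9 to 21.0). Single low libraries were seen throughout the set. The number of genes in which the lowest library lay at least 4-fold below each of the other 9 ran from 7 (control 5) to 18 (control 3 and control 4) per library and was 14 in EA 2. The 3 genes most like Htr2c over the 10 libraries were LOC100909548, LOC108348112 and LOC108348122, each listed at 0 in EA 2 and at 16.9 FPKM or more in every other library. The origin of the low value was not tested.

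**Figure D2:**
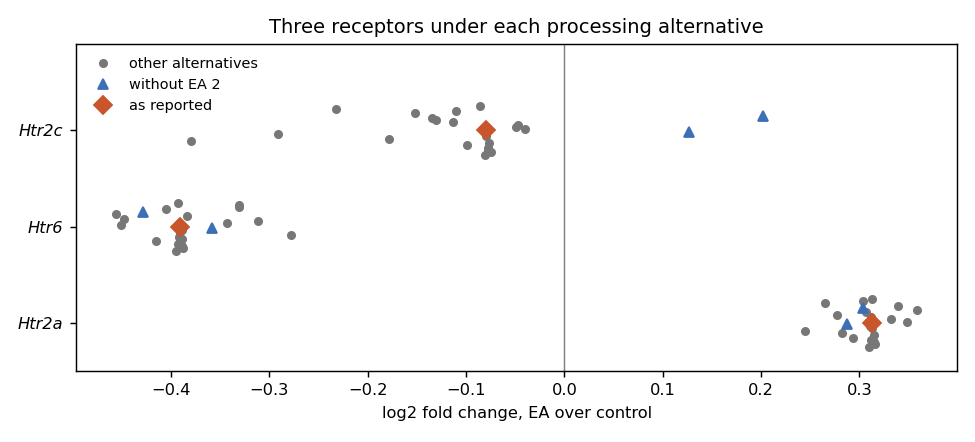
Log2 fold change, EA over control, of Htr2a, Htr6 and Htr2c as reported (diamonds), without EA 2 alone or with EA 5 (triangles) and under the other processing alternatives (grey). Htr2a stays above 0 and Htr6 below 0 in all settings drawn, while Htr2c moves from -0.08 to 0.20 without EA 2.

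**Figure D3:**
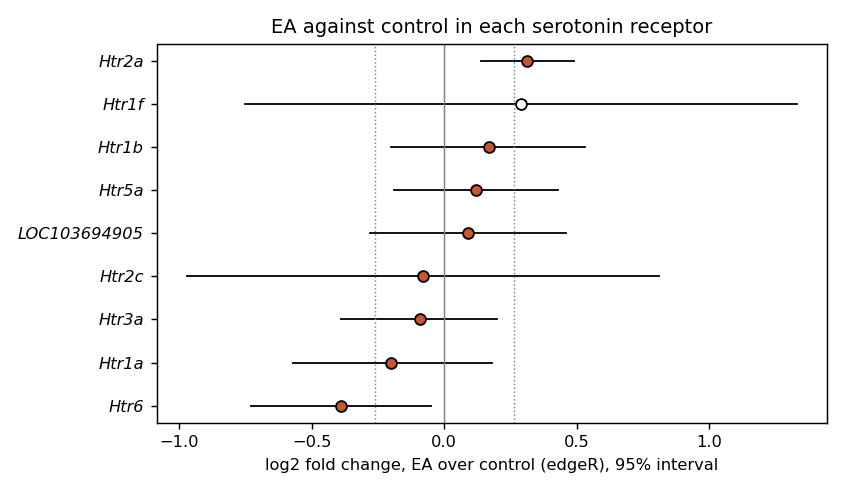
Log2 fold change of each receptor, EA over control, with its 95% interval from edgeR, filled points having passed the expression filter and dotted lines marking a fold of 1.2 in either direction. The intervals of Htr2a (0.14 to 0.49) and Htr6 (-0.73 to -0.05) leave out 0, that of Htr2c is wide, and Htr1f is from the fit with no filter.

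For the remaining receptors the data set bounds rather than differences. Htr1a, an inhibitory receptor, was at 1.72 ± 0.311 FPKM in control and 1.48 ± 0.165 in EA (fold 0.873, 95% interval 0.672 to 1.13, edgeR adjusted p = 0.658). Control 1, with 1.21, was the lowest of all 10 libraries, and the groups overlapped. Htr1b was at 2.64 ± 0.583 and 2.91 ± 0.427 (fold 1.12, interval 0.872 to 1.45, adjusted p = 0.708). Control 3, at 3.65, stood above the other controls, which held 2.18 to 2.55. Htr5a was at 2.36 ± 0.321 and 2.52 ± 0.426 (fold 1.09, interval 0.876 to 1.35, adjusted p = 0.763), and EA 1, at 3.08, was its highest library.

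The channel subunit Htr3a was at 3.26 ± 0.555 FPKM in control and 3.01 ± 0.37 in EA (fold 0.937, interval 0.763 to 1.15, edgeR adjusted p = 0.815). LOC103694905, the row described as receptor 7, was at 1.56 ± 0.297 and 1.64 ± 0.323 (fold 1.07, interval 0.824 to 1.38, adjusted p = 0.859). A row on the opposite strand overlaps it but reached only 8 counts. Htr1f, from the fit with no filter, had a fold of 1.22 with an interval of 0.596 to 2.51, which includes both a loss and a gain of over 1.5-fold. For Htr4 no fold is given, since its counts were 3, 0, 12, 0 and 0 in controls 1 to 5 and 12, 0, 0, 0 and 3 in EA 1 to 5.

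Summed over the 9 members, receptor RNA was alike in range, at 19.3 to 23.4 FPKM in control (median 19.7) and 18.6 to 22.6 in EA (median 20.8). The Gq pair Htr2a and Htr2c made up 33.9% to 43.2% of this sum in control and 36.7% to 45.7% in EA. The Gi receptors made up 29.9% to 39.1% and 31.0% to 36.5%. The Gs receptors Htr6 and Htr4 made up 10.2% to 13.3% in control and 7.00% to 11% in EA. With LOC103694905 added to the sum as a Gs receptor this share was 16.9% to 20.6% in control and 13.0% to 19.0% in EA. Htr3a supplied 13.7% to 17.8% and 12.8% to 16.3%. The groups overlapped in every class.

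Within a library, the FPKM ratio of Htr2a to Htr1a, both known from pyramidal cells, was 4.54, 3.23, 2.60, 2.72 and 2.56 in controls 1 to 5. In EA 1 to 5 it was 3.65, 3.81, 3.99, 4.96 and 5.37. Every EA rat lay above 4 of the 5 controls, and control 1 lay among the EA rats. These ratios were formed after the members' values were known and carry no test.

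**Figure D4:**
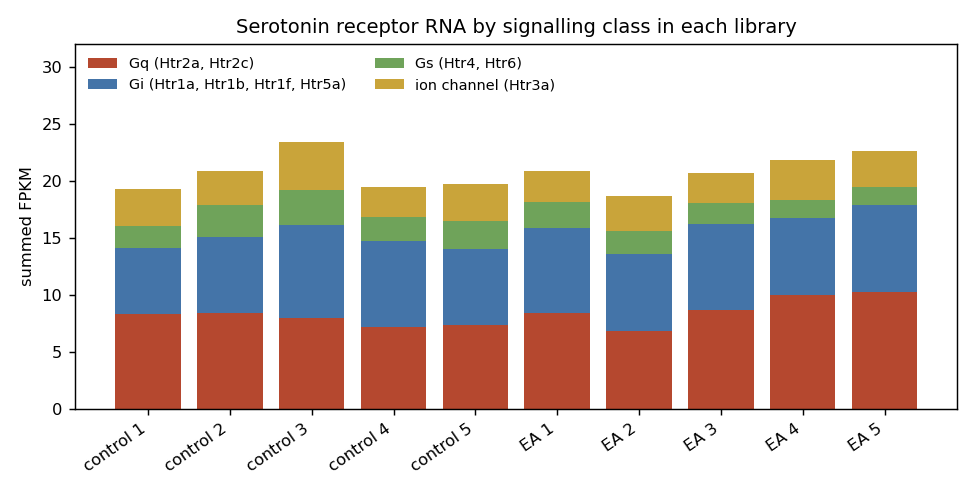
Summed FPKM of the 9 receptors in each library, stacked by signalling class, with bars starting at 0. The sum stays between 18.6 and 23.4 in all 10 libraries, and the Gq part ranges from 6.84 (EA 2, where Htr2c is low) to 10.2 (EA 5).

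Likeness between genes was measured as the root mean square difference of z-scored log2 CPM over the 10 libraries, in SD units, as a description only. Among the 8 receptor rows tested, the closest pair was Htr1a and Htr6 (0.723), and 384 other genes were closer to Htr6 than Htr1a was. Htr2a and Htr6 were 1.85 apart. The genes most like Htr2a were Dcun1d4 (0.337), AABR07060145 (0.355) and the prion protein gene Prnp (0.379). Those most like Htr6 were the receptor phosphatase gene Ptprs (0.292), the ATP-gated channel gene P2rx4 (0.312) and Ebp (0.317), an enzyme of cholesterol synthesis.

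For Htr1a the closest genes were Arhgef17 (0.281), RGD1561113 (0.345) and Akap17a (0.361). For Htr5a they were the Gi-opened potassium channel Kcnj6 (0.322), Mrap2 (0.341) and Mir199b (0.352). Htr1b lay closest to Tbl1x (0.362), Apol9a (0.427) and LOC102551929 (0.437), and Htr3a to Stat2 (0.385), H3f3a (0.401) and Nfkb2 (0.413). LOC103694905 lay closest to Nck1 (0.401), Morf4l1 (0.477) and LOC103690156 (0.496).

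Genes that make, carry and break down serotonin did not pass the test in either direction. Of 16 such genes 12 were tested and 0 were called by edgeR or DESeq2. DESeq2 gave no adjusted p to Tph2, Gch1 and Slc22a3, which it thus could not call. Of the 12 tested, 1 lay at an unadjusted edgeR p under 0.05, against 13.7% of all genes. That gene was Aldh2, an aldehyde dehydrogenase that follows monoamine oxidase, with a log2 fold change of -0.16 (standard error 0.07, edgeR adjusted p = 0.321). The breakdown enzymes Maoa and Maob were at 25.8 and 46.4 FPKM, with log2 fold changes of -0.02 and 0.05. The vesicle carrier Slc18a2 was at 2.86 FPKM (log2 fold change 0.21), and the low-affinity carriers Slc29a4 and Slc22a3 at 3.36 and 0.609 FPKM (-0.10 and 0.36).

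Tph2, the enzyme that starts serotonin synthesis in neurons, was detected in every cortex, at 0.94 to 1.71 FPKM and 124 to 272 counts (log2 fold change -0.07, edgeR adjusted p = 0.922). The serotonin transporter Slc6a4 was nearly absent in the same libraries, at 0, 0, 6, 19 and 12 counts in controls 1 to 5 and 2, 0, 0, 0 and 0 in EA 1 to 5, so no fold is given. Ddc, which makes serotonin and dopamine from their precursors, was at 1.45 ± 0.467 FPKM in control and 1.16 ± 0.277 in EA (log2 fold change -0.31, edgeR adjusted p = 0.576). The cofactor enzymes Qdpr, Pts, Gch1 and Spr had log2 fold changes of -0.16, -0.08, 0.17 and -0.02. Tph1, Aanat and Asmt, known mainly from the gut and the pineal, stayed below the filter at 0.0268, 0.335 and 0.373 FPKM.

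Among Gq effectors, the partners of Htr2a and Htr2c, 20 of 20 genes were tested and 0 were called by edgeR, while DESeq2 called 1 higher and 1 lower, against 1.09% of all genes. At an unadjusted p under 0.05 were 2 higher and 1 lower of the 20, near the 13.7% of all genes, and the median log2 fold change was 0.04. Rgs2, which shortens Gq signals, went from 27.5 ± 2.00 to 33.5 ± 3.75 FPKM, with all 5 EA rats above all controls (log2 fold change 0.31, standard error 0.08, edgeR adjusted p = 0.183, DESeq2 adjusted p = 0.027). Without EA 2 and EA 5 its DESeq2 adjusted p was 0.193 (log2 fold change 0.25). Itpr3, a calcium release channel, went from 1.57 ± 0.138 to 1.01 ± 0.114 FPKM, with all EA rats below all controls (log2 fold change -0.62, standard error 0.10, edgeR adjusted p = 0.0897, DESeq2 adjusted p = 3.9e-05). Without EA 2 and EA 5 it was still called by DESeq2 (log2 fold change -0.63, adjusted p = 0.00176). Both genes were also without overlap in TMM-scaled CPM, a separation in FPKM being seen in 0.85% of all genes upwards and 2.25% downwards. The phospholipase Plcb2 had a log2 fold change of -0.37 (edgeR adjusted p = 0.421). Plcb2 and Gna14 had no DESeq2 adjusted p and could not be called by that tool.

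Gi effectors gave 0 calls in 20 of 20 genes tested with either tool, and 1 gene at an unadjusted p under 0.05, against 13.7% of all genes. This was Gng2, a gamma subunit, at 51.7 ± 2.11 FPKM in control and 58.9 ± 3.07 in EA, with all EA rats above all controls in FPKM, as 0.85% of all genes were, and in TMM-scaled CPM, as 1.42% were (log2 fold change 0.21, standard error 0.05, edgeR adjusted p = 0.174). Its DESeq2 adjusted p was 0.0115 (0.0999 without EA 2 and EA 5), but the fold change stayed below 1.2. Gnb2, Rgs7 and Gng3 had log2 fold changes of -0.09, 0.14 and 0.13.

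Gs effectors gave 0 calls in 21 of 21 genes with either tool, where edgeR called 0.0198% and DESeq2 1.09% of all genes. Creb1 had no DESeq2 adjusted p and could not be called by that tool. Adcy1, the calcium-stimulated adenylyl cyclase of cortex, was the only one at an unadjusted p under 0.05, where 13.7% of all genes lay. It was at 93.5 ± 6.41 FPKM in control and 78.7 ± 7.68 in EA (log2 fold change -0.22, edgeR adjusted p = 0.247). Hcn2, Prkar2b and Adcy8 had -0.14, 0.12 and 0.22. Of 19 proteins that bind, desensitise or edit serotonin receptors 0 were called, and 3 lay higher and 2 lower at an unadjusted p under 0.05, against 6.59% and 7.15% of all genes. Without EA 2 and EA 5 these were 1 and 1, against 4.39% and 4.32%. The scaffold Mpdz, which binds Htr2c, had a log2 fold change of 0.15 and the kinase Fyn 0.14, while the receptor kinase Grk6 had -0.16 and Adarb1, an enzyme that edits Htr2c RNA, -0.12 (edgeR adjusted p from 0.257 to 0.337).

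Cell type markers gave 0 calls with either tool, and their part in the receptor values was not tested. Some markers, Sncg and Lhx6 among them, had no DESeq2 adjusted p and could not be called by that tool. Markers of excitatory neurons, which carry most Htr2a, had a median log2 fold change of 0.03, with Calb1 at 0.24 and Foxp1 at -0.14 (edgeR adjusted p = 0.20 and 0.339). Markers of the interneuron class that carries Htr3a had a median of 0.07, and 3 of 11 lay higher at an unadjusted p under 0.05 (6.59% of all genes did). These were the cannabinoid receptor Cnr1, Vip and Reln, each at 0.19. Without EA 2 and EA 5 the count was 2 of 11, where 4.39% of all genes lay higher. Cnr1 and the excitatory marker Calb1 had DESeq2 adjusted p of 0.0166 and 0.0486, but their fold changes stayed below 1.2. Gad1 and Gad2, which make GABA, had log2 fold changes of 0.15 and 0.19 (edgeR adjusted p = 0.336 and 0.254). They were the 2 of 9 tested Pvalb, Sst and general inhibitory markers higher at an unadjusted p under 0.05, where 6.59% of all genes were. Without EA 2 and EA 5 the count was 0 of 9, against 4.39% of all genes. The median of that list with all libraries was -0.03, with 4 of 9 above 0. Of all genes tested 49.5% lay above 0. Oligodendrocyte markers lay below 0 in 8 of 8 (median -0.12, Mbp at -0.31), 3 of them at an unadjusted p under 0.05 where 7.15% of all genes were, with a summed FPKM of 987 to 1430 in control and 874 to 1130 in EA. Without EA 2 and EA 5 their median was -0.23, again with 0 of 8 above 0. Endothelial markers lay below 0 in 5 of 5 tested (median -0.22, Flt1 at -0.22), or 4 of 5 without EA 2 and EA 5, with a sum of 54.9 to 71.7 in control and 51.6 to 55.7 in EA. Astrocyte and microglial markers lay above 0 in 4 of 8 and 3 of 8.

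**Figure D5:**
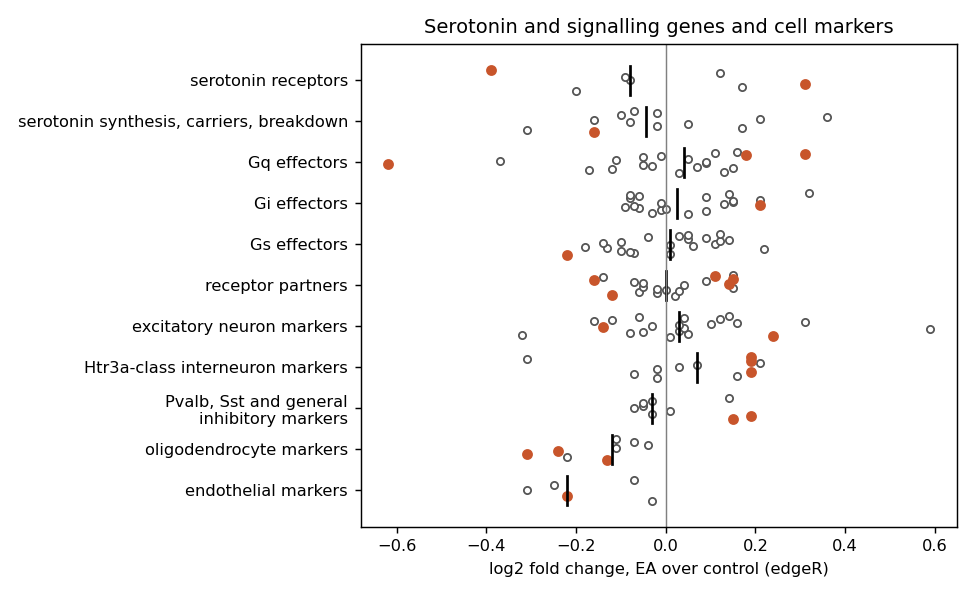
Log2 fold change, EA over control, of every tested gene in the receptor set, the serotonin and signalling lists and the main cell marker lists, with filled points at an unadjusted edgeR p under 0.05 and black bars at list medians. Receptor and effector genes scatter to both sides of 0 with medians from -0.08 to 0.04, while all oligodendrocyte and endothelial markers tested lie below 0.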

How the data were processed

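The submitters' processing notes name HISAT2 2.0, StringTie 1.3.0, Bowtie 0.12.2 and the Rnor_6.0 build, and the study's methods name Cutadapt, HISAT2, StringTie, gffcompare and ballgown. FPKM values were computed and deposited by the authors, with 0.0001 standing for 0. Whole-number counts were deposited by the authors beside them, and how these were drawn from the assembly was not stated. No reads were aligned here.

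Counts of genes reaching 0.5 FPKM in 5 or more libraries were tested in R 4.3.3 with edgeR 4.0.16, by its quasi-likelihood test after TMM scaling, and p-values were adjusted across every tested gene (Benjamini-Hochberg). DESeq2 1.42.0 and limma 3.58.1 served as alternatives, and the scripts were tested on simulated data. A call needed both an adjusted p under 0.05 and more than 1.2-fold change. Tested genes to which DESeq2 gave no adjusted p were counted as not called, also in its share of all genes. Standard errors are the log2 fold change divided by the root of F. Levels were compared within libraries on log2(FPKM + 0.1) by exact sign-flip permutation, two-sided.

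Members and gene lists were chosen with earlier results of these data known. Named were all members, the other receptor and serotonin metabolism genes with a count, the 4 genes of lowest p and the most abundant markers of each list as far as a statement rests on them, and the 3 genes most like each member. Ttr, Folr1, Otx2, Fev, En1, Drd1, Drd2 and the rows near Htr2c were picked after their values were seen. A gene that the rule names is not reported here. Likeness was measured on log2(CPM + 0.1). Alternatives were the filter, scaling, tool, pseudocount, robust fit, replicate number as a block and left-out libraries.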

Additional observations from a re-analysis of the deposited data

Results flagged for a closer look

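Of 18 groups of 5 libraries looked at, 2 held a library far from the others by Dixon's ratio (critical value 0.710 for 5 libraries), where chance alone flags about 1 in 20. Htr2c in EA 2, at 0.35 FPKM, lay below the other 4 EA libraries, which held 2.70 to 3.51 (ratio 0.743). Its log2 gap to the next lowest of all 10 libraries was 2.58, and 89 of the genes tested had a gap at least as large in some library. Htr1b in control 3, at 3.65 FPKM, lay above the other 4 controls, which held 2.18 to 2.55 (ratio 0.748).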

How the results depend on the processing

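The count of genes called higher in EA was 3 as reported, 69 with DESeq2, 27 with DESeq2 without EA 2 and EA 5, 1 with limma on log2(FPKM + 0.1), and 1 to 5 when 1 library was left out (1 without control 5 or EA 5, 5 without EA 3). The count called lower was 0 as reported (1085 genes at an unadjusted p under 0.05), 97 with DESeq2, 19 with DESeq2 without EA 2 and EA 5, 1 with limma at either pseudocount (0.1 or 1), 2 with edgeR without EA 2 and EA 5, and 0 to 1 when 1 library was left out (1 without control 1 or EA 1). Receptors called numbered 0 in the edgeR and limma fits run, edgeR fits with 1 library left out included (0 to 0), 1 with DESeq2 and 0 with DESeq2 without EA 2 and EA 5. In that last fit only Htr2a and Htr2c had an adjusted p (DESeq2, 0.242 and 0.785). Htr1a, Htr1b, Htr3a, Htr5a and Htr6 had none there and could not be called. Under DESeq2 with 1 library left out, Htr2a was called in 3 of 10 fits.

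With the replicate number as a block 0 genes were called higher. Same-numbered libraries correlated at 0.005 to 0.066 in their deviations from the group means, with 2 of 5 EA libraries closest to their own number, so the numbers were not taken as pairs. With this block Htr2a had a log2 fold change of 0.31 (edgeR adjusted p = 0.262).

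Htr2c changed sign without EA 2 (0.20), without EA 2 and EA 5 (0.13 with edgeR, 0.12 with DESeq2), and Htr3a without control 3 (0.014). With 1 library left out they ranged from -0.23 to 0.20 and from -0.16 to 0.014. Htr2a stayed between 0.26 and 0.36 in 20 edgeR fits, with adjusted p from 0.104 to 0.514. Htr6 stayed between -0.46 and -0.31, with p under 0.05 in 14 of 20. The division of counts by 4, the left-out libraries under DESeq2, the fits without EA 2 and EA 5 under DESeq2, and those of gene lists and effector genes without these libraries were chosen after seeing the data. Depth limits Htr1f, at 12 to 46 counts, and Htr4, at 12 or fewer, for which no fold change was computed under the alternatives. For Htr1f the filters gave no value, so its fits used no filter.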
